A study of Homo sapiens with 5 samples.

Results

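10 genes of the BCL2 family were followed in HaCaT cells with and without knockdown of AHNAK. They were taken by symbol from the deposited expression table: the survival genes MCL1, BCL2, BCL2L1 and BCL2L2, the pore-forming effector BAK1, and the BH3-only genes BCL2L11, BID, BAD, BMF and BIK. All 10 of these symbols were present among the 27933 in the table. HaCaT is an established, spontaneously immortalised human keratinocyte line. AHNAK is a giant scaffold protein found at the cell periphery. Total RNA was sequenced from 2 libraries labelled as control and 3 labelled as AHNAK knockdown, all grown in DMEM with serum. The series' design text calls the treated cells a knockout, the interfering RNA is not named, and the labels do not say whether replicates were separate cultures, so the spread behind each p-value is that between these libraries and may be technical. The series title places AHNAK downstream of the oncostatin M receptor in keratinocyte proliferation and differentiation.

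BCL2 family proteins decide whether the outer mitochondrial membrane is permeabilised. Survival members hold BAK1 and its relative BAX in check, and BH3-only members answer stress or loss of growth signals by occupying the survival members or by activating BAK1 and BAX directly. In the epidermis, MCL1 and BCL2L1 are known as major survival genes of keratinocytes, and BMF and BCL2L11 as mediators of the death that follows loss of matrix contact or of EGF receptor signalling. Much of this control acts on the proteins, through turnover, phosphorylation and cleavage, which RNA levels do not measure.

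The 5 libraries differed little in the number of genes at 1 FPKM or more, which was 12087 to 12311. FPKM stands for sequenced fragments divided by transcript length and by the library's mapped fragments, so that genes can be compared. The FPKM sums differed more. Knockdown replicate 3 had the largest sum, 420541, and control replicate 1 the smallest, 374215. AHNAK measured 204.8 and 242.0 FPKM in control cells against 113.9, 69.6 and 115.3 FPKM in knockdown cells, so the targeted transcript was lower in every library labelled as knockdown. Values of single libraries are given here in the order of the replicate numbers. The 10 keratinocyte markers examined all had a mean of 1 FPKM or more, and their summed level was 5831 to 7349 FPKM in controls and 3711 to 5410 FPKM in knockdown libraries. Fibroblast markers summed to 3.30 to 5.02 FPKM in controls and 6.12 to 10.24 FPKM in knockdown libraries, with 3 of 8 at a mean of 1 FPKM or more. Leukocyte markers summed to 16.2 to 18.4 and 21.3 to 29.1 FPKM, with 1 of 6 at a mean of 1 FPKM or more, and the melanocyte and endothelial sums stayed at 3.01 FPKM or less in every library, with the melanocyte enzyme TYR at 0 throughout. The part of these shifts in the differences given below was not tested. Low values showed that control replicate 1 and knockdown replicates 1 and 3 share value steps (set A), and that control replicate 2 and knockdown replicate 2 share others (set B). No label describes these sets, and both hold libraries of both groups, so differences are also given within each; set B has 1 library per group and set A 1 control, so these carry no test.

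Promoter sequence is shown for the gene with the largest difference between groups (BCL2L11) and for the gene that was nearly silent (BCL2). It is also shown for BCL2L1, the survival gene that was higher in every knockdown library on the deposited values. Each run is the 250 bases before the RefSeq gene start, 5′ to 3′ on the gene's strand (GRCh38.p14). Capitals mark matches, on either strand, to the letters of 6 motifs: a FOXO core (TGTTTAC), a STAT palindrome (TTCNNNGAA), a cAMP response element (TGACGTCA), an AP-1 site (TGANTCA), a GC box (GGGCGG) and a TATA box (TATAAA). The windows are chr2:111120664-111120913 on the plus strand for BCL2L11, chr20:31723964-31724213 on the minus strand for BCL2L1 and chr18:63319770-63320019 on the minus strand for BCL2. The RefSeq and GENCODE starts differ. By the GENCODE positions given below, the BCL2L11 and BCL2 windows lie inside the gene, and the BCL2L1 window overlaps the gene's start.
BCL2L11: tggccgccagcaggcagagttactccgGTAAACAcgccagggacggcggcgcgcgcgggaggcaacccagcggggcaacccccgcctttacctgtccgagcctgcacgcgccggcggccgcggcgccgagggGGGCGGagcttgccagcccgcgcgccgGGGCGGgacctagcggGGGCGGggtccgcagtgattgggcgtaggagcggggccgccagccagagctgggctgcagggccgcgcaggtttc
BCL2L1: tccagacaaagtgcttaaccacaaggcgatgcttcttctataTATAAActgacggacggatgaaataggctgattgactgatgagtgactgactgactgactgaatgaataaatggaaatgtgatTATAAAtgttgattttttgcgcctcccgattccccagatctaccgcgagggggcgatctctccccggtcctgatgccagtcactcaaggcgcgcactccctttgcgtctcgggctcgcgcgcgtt
BCL2: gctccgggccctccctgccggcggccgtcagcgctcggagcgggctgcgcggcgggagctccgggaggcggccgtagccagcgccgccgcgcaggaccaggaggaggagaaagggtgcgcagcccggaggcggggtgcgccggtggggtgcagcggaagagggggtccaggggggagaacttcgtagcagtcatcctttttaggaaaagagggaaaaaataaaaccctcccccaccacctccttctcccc

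The BCL2L11 window held 1 FOXO core, starting at position -223 from the gene start, and 3 GC boxes. A FOXO core was found in 3.0% of 35116 promoter windows of this length and a GC box in 42.6%. The BCL2L1 window held 2 TATA box matches, starting at positions -208 and -125, where 10.7% of windows held at least 1. The BCL2 window held none of the 6 motifs. It was rich in CpG all the same, with 24 CpG dinucleotides, against 34 for BCL2L11, 17 for BCL2L1 and a median of 11 over all windows. RefSeq promoter windows were matched for 7 of the 10 genes. MCL1, BCL2L2 and BIK had no entry. Among the 4 other matched genes, BAK1, BID, BAD and BMF held 1 to 4 GC boxes each and no match to the other 5 motifs. None of the 7 held the STAT, cAMP response or AP-1 letters, which occur in 6.6%, 1.6% and 6.6% of all windows. These are matches of letters and not binding sites.

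The family spanned a wide range of levels in HaCaT cells, and the order was largely the same in every library. MCL1 was the highest, with a mean over the 5 libraries of 110.8 FPKM, higher than 95.5% of the genes tested. BAD (42.7 FPKM) and BAK1 (39.6 FPKM) followed with overlapping ranges, and BAD exceeded BAK1 in 3 of 5 libraries. BCL2L1 (32.2 FPKM) was below BAK1 in all 5 libraries although the ranges overlapped. BIK (25.0 FPKM) and BID (23.9 FPKM) could not be ordered, with BIK above BID in 2 of 5 libraries. BCL2L2 (16.1 FPKM) lay below both, with no overlap in range with BID, and BCL2L11 (9.28 FPKM) lay below BCL2L2, again without overlap. BMF (5.96 FPKM) was below BCL2L11 in 4 of 5 libraries, and the exception was control replicate 2. BCL2 came last, at 0.0281 to 0.0913 FPKM. In GENCODE release 29 (GRCh38) MCL1, the highest, lies on chromosome 1 (150574551 to 150579738, minus strand, ENSG00000143384.12) and BCL2, the lowest, on chromosome 18 (63123346 to 63320128, minus strand, ENSG00000171791.12). BCL2L11 lies on chromosome 2 (111119378 to 111168447, plus strand, ENSG00000153094.22) and BCL2L1 on chromosome 20 (31664452 to 31723989, minus strand, ENSG00000171552.12). The others are on chromosomes 6 (BAK1), 11 (BAD), 14 (BCL2L2), 15 (BMF) and 22 (BID and BIK).

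**Figure D1:**
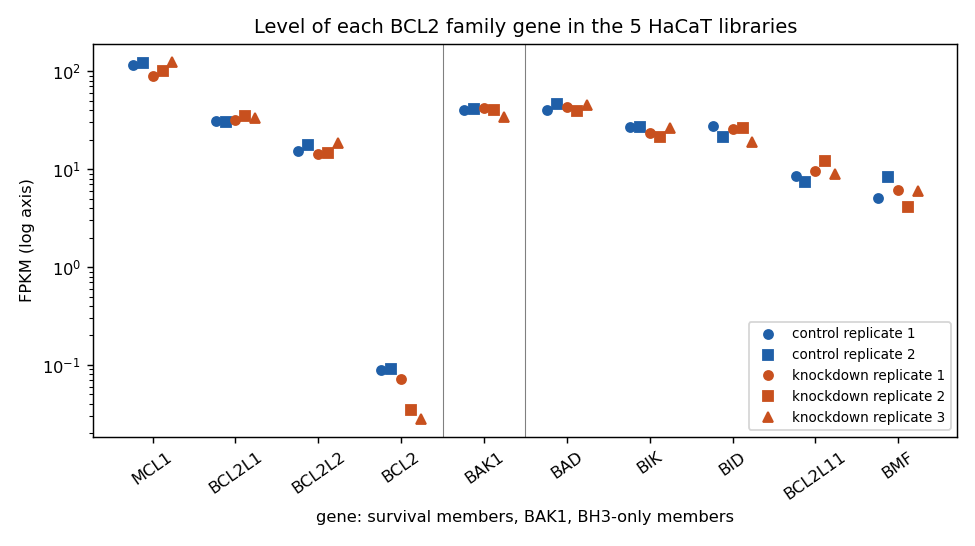
FPKM of each BCL2 family gene (log axis) in 2 control libraries (blue) and 3 knockdown libraries (orange), 1 point per library, with survival genes on the left, BAK1 in the middle and BH3-only genes on the right. MCL1 sits between 90.3 and 124.9 FPKM and BCL2 at or below 0.0913 FPKM, and within each gene other than BCL2 the points of the groups lie close together.

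The differences between knockdown and control of the tested family genes ran from -0.26 (BMF) to 0.33 (BCL2L11), and none passed the test. On the log2(FPKM + 0.5) scale, 7 of the 9 tested genes (77.8%) had a negative knockdown minus control difference and 2 a positive one, with a median of -0.06. Of all 12196 tested genes, 48.7% were negative and their median was 0.01. The median of the 9 changed sign with the libraries used: 0.07 within set A, -0.24 within set B and 0.03 without control replicate 2. None of the 9 passed at an adjusted p under 0.05 (limma, Benjamini-Hochberg over all tested genes), and 0.0% of all tested genes did. AHNAK itself, at -1.19, did not pass either (limma adjusted p = 0.372). A gene that did not pass is therefore not shown to be unchanged. At an unadjusted p under 0.05, 0 of the 9 passed, where 11.7% of all tested genes did. The 95% intervals of all 9 lay inside a change of 1 on the log2 scale in either direction, as did those of 90.1% of all tested genes. BCL2 did not reach the mean of 1 FPKM that the test required. In this bulk RNA, fewer cells carrying a transcript and less of it per cell cannot be told apart.

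Among the survival genes, MCL1, a short-lived protein that holds BAK1 and binds most BH3-only proteins, measured 117.3 and 121.9 FPKM in control cells against 90.3, 99.8 and 124.9 FPKM in knockdown cells. Knockdown replicates 1 and 2 were below both controls and knockdown replicate 3 was above both, so the groups overlapped. The control mean was 119.6 ± 3.28 FPKM (SD, n = 2) and the knockdown mean 105.0 ± 17.9 FPKM (SD, n = 3). The log2 difference was -0.20 (SE 0.17, 95% interval -0.60 to 0.20, limma adjusted p = 0.649), or -0.14 within set A and -0.29 within set B. Without knockdown replicate 3 it was -0.33 (limma adjusted p = 0.316), and without knockdown replicate 1 it was -0.10 (limma adjusted p = 0.773).

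BCL2L1, which gives the survival protein BCL-xL and by splicing the short pro-death form BCL-xS, measured 30.8 and 30.2 FPKM in control cells against 31.7, 34.9 and 33.2 FPKM in knockdown cells. On the deposited values every knockdown library was above both controls, by a small margin in knockdown replicate 1. Knockdown replicates 1 and 3 exceeded control replicate 1 by proportionally less than their FPKM sums did (386368 and 420541 against 374215). This order therefore depends on the scaling. The control mean was 30.5 ± 0.47 FPKM (SD, n = 2) and the knockdown mean 33.3 ± 1.56 FPKM (SD, n = 3), a log2 difference of 0.12 (SE 0.12, 95% interval -0.16 to 0.41, limma adjusted p = 0.700). BCL2L1 was the steadiest of the 10 genes, with its highest library 1.16 times its lowest. The table holds 1 value per gene, so the BCL-xL and BCL-xS forms, the long and short forms of MCL1 and the splice forms of BCL2L11 cannot be separated. In GENCODE, 43.0% of the exon bases of BCL2L1 are shared with ABALON on the opposite strand, which stood at 0.401 to 0.808 FPKM.

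BCL2L2, which encodes the survival protein BCL-w, measured 15.4 and 17.5 FPKM in control cells against 14.4, 14.5 and 18.6 FPKM in knockdown cells. The groups overlapped, with knockdown replicate 3 the highest library. The log2 difference was -0.06 (SE 0.16, 95% interval -0.44 to 0.32, limma adjusted p = 0.894), and it was 0.09 within set A but -0.27 within set B. The read-through gene BCL2L2-PABPN1 shares 19.4% of the exon bases of BCL2L2 and stood at 0.193 FPKM or less. BCL2 itself, the founding survival gene of the family, measured 0.0893 and 0.0913 FPKM in control cells against 0.0716, 0.0344 and 0.0281 FPKM in knockdown cells. All 3 knockdown values were below both controls, at a level where the file gives no read numbers and no fold change is interpretable. Without the filter on low values its log2 difference was -0.12 (limma adjusted p = 0.548). BCL2A1 and BCL2L10, the remaining survival genes listed, were at or below 0.0964 FPKM as well. Of the 6 survival genes examined, HaCaT libraries thus held MCL1, BCL2L1 and BCL2L2 above 1 FPKM.

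MCL1 made up 71.7% and 71.8% of the summed FPKM of the 4 survival genes in the controls and 66.1%, 66.9% and 70.7% in knockdown replicates 1, 2 and 3. The knockdown libraries were all below the controls, knockdown replicate 3 by about 1 percentage point. The ratio of MCL1 to BCL2L1, which is free of any single scaling factor per library, was 3.81 and 4.04 in the controls and 2.84, 2.86 and 3.76 in knockdown. The longest transcripts of MCL1 and BCL2L1 have 45.1% and 56.9% GC. The part that library trends with GC content, given below, have in this ratio was not tested. The summed FPKM of the survival genes overlapped between groups, with 163.6 and 169.7 in the controls and 136.5, 149.2 and 176.7 in knockdown. The ratio of this sum to that of the BH3-only genes also overlapped, with 1.51 and 1.53 in the controls and 1.27, 1.45 and 1.67 in knockdown. The BH3-only sum itself did not, with 108.0 and 110.7 in the controls and 107.3, 102.6 and 105.6 in knockdown. The ratio of MCL1 to BCL2L11 was 13.8 and 16.5 in the controls and 9.54, 8.29 and 13.9 in knockdown, where knockdown replicate 3 lay between the controls. Of 10 such sums and ratios computed, 4 did not overlap between groups and 6 did. Among all tested genes, taken singly, 32.0% did not overlap, which is not a matched background for sums and ratios. The sums and ratios share genes with each other, and no test was made of them.

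The effector BAK1, which forms pores in the outer mitochondrial membrane, measured 40.5 and 41.3 FPKM in control cells against 42.4, 39.9 and 33.8 FPKM in knockdown cells. Knockdown replicate 3 alone lay well below the rest. The log2 difference was -0.09 (SE 0.14, 95% interval -0.43 to 0.25, limma adjusted p = 0.823), and 0.0059 without knockdown replicate 3. BAX, the other effector, was present at a like level of 42.7 to 51.9 FPKM, and its groups overlapped too, with a log2 difference of -0.09 (limma adjusted p = 0.809). BOK, a further relative of the effectors, measured 7.93 and 8.81 FPKM in control cells against 7.40, 4.40 and 4.74 FPKM in knockdown cells, a log2 difference of -0.59 that did not pass (limma adjusted p = 0.406).

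BCL2L11 had the largest difference of the 9 tested genes. It encodes BIM, a BH3-only protein that binds all survival members and can activate BAK1 and BAX. It measured 8.51 and 7.40 FPKM in control cells against 9.47, 12.04 and 8.99 FPKM in knockdown cells. On the deposited values every knockdown library was above both controls, with knockdown replicate 2 far above and knockdown replicate 3 just above. Knockdown replicate 3 exceeded control replicate 1 by proportionally less than its FPKM sum did (420541 against 374215), so this order depends on the scaling. The control mean was 7.96 ± 0.79 FPKM (SD, n = 2) and the knockdown mean 10.16 ± 1.64 FPKM (SD, n = 3), a log2 difference of 0.33 (SE 0.17, 95% interval -0.07 to 0.72), with an unadjusted p of 0.0901 in limma and an adjusted p of 0.485. By size this exceeded 78.6% of all tested genes. Set A gave 0.11 and set B 0.67, and without knockdown replicate 2 it was 0.20 (limma adjusted p = 0.857). With limma array weights it passed (0.51, adjusted p = 0.0480), in a fit that called 1428 genes, with a weight of 3.98 for knockdown replicate 2 against 0.257 for knockdown replicate 3. In GENCODE, 10.9% of the exon bases of BCL2L11 are shared with MIR4435-2HG on the opposite strand, which stood at 6.45 to 9.67 FPKM. Strand use in counting is not given in the sources used here, so reads of this stretch may be assigned to either gene.

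BMF, a BH3-only protein held at the cytoskeleton until the cell detaches, varied most among the tested members. It measured 5.04 and 8.38 FPKM in control cells against 6.18, 4.14 and 6.03 FPKM in knockdown cells. The controls were further apart than any other pair of libraries except control replicate 2 and knockdown replicate 2, the highest and the lowest, which differed 2.02 times. The log2 difference was -0.26 (SE 0.25, 95% interval -0.86 to 0.35, limma adjusted p = 0.703). Set A gave 0.25 and set B -0.94, and without control replicate 2 it was 0.08.

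BIK, a BH3-only protein of the endoplasmic reticulum, measured 26.7 and 27.2 FPKM in control cells against 23.3, 21.2 and 26.6 FPKM in knockdown cells. The knockdown libraries were all below the controls, but knockdown replicate 3 by less than the distance between the controls. The log2 difference was -0.19 (SE 0.14, 95% interval -0.52 to 0.15, limma adjusted p = 0.622), or -0.10 within set A and -0.35 within set B. BID, which is cut by caspase-8 and links death receptors to mitochondria, measured 27.4 and 21.5 FPKM in control cells against 25.5, 26.2 and 19.1 FPKM in knockdown cells. The groups overlapped. The log2 difference was -0.05 (SE 0.19, 95% interval -0.51 to 0.40, limma adjusted p = 0.927), and the sets went opposite ways, with -0.31 for set A and 0.28 for set B. BAD, which is kept inactive by phosphorylation under growth factor signalling, measured 40.5 and 46.2 FPKM in control cells against 42.9, 39.0 and 45.0 FPKM in knockdown cells. It had the smallest difference of the 9, -0.03 (SE 0.14, 95% interval -0.36 to 0.29, limma adjusted p = 0.939). In GENCODE, 23.7% of the exon bases of BAD are shared with GPR137 on the opposite strand, at 21.1 to 26.9 FPKM. As for BCL2L11, strand use in counting is not given, so reads of this stretch may be assigned to either gene.

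**Figure D2:**
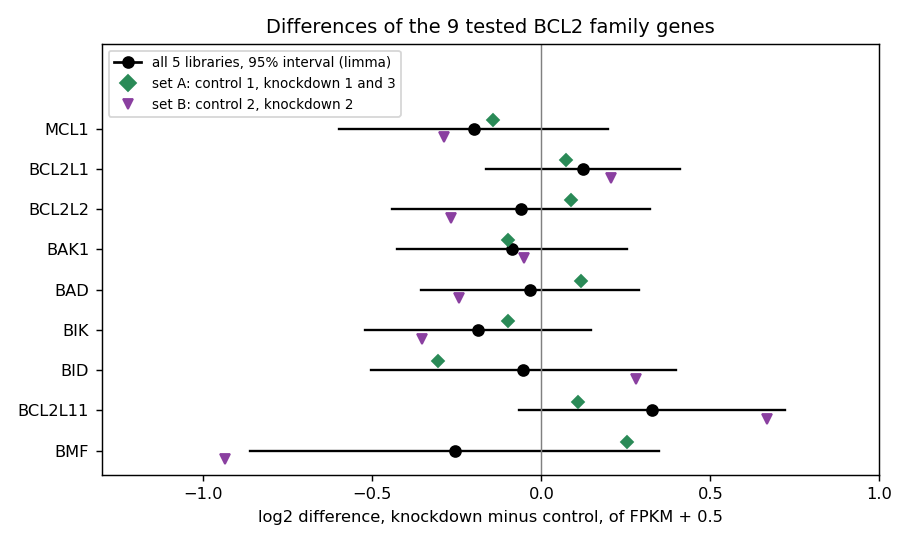
Log2 difference (knockdown minus control, FPKM + 0.5) of the 9 tested BCL2 family genes: black points with bars are the estimate over all 5 libraries and its 95% interval from limma, and green and purple points are the differences within set A and set B. Every interval includes 0. BCL2L11 lies furthest to the right at 0.33, and the sets have opposite signs for BCL2L2, BAD, BID and BMF.

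On the deposited values the groups did not overlap in 3 of the 9 tested genes (33.3%). BCL2L1 and BCL2L11 were higher, an order that depends on the scaling. BIK was lower in every knockdown library, in knockdown replicate 3 by little (26.56 against 26.66 FPKM in control replicate 1). Whether the order of BIK holds under other scalings was not tested. Over all tested genes 32.0% did not overlap, 16.2% higher and 15.8% lower, so the share among the family was near this background. The differences within set A and set B had opposite signs in 4 of the 9 genes (44.4%), where 44.3% of all tested genes did. Control replicate 2 and knockdown replicate 2 stood at opposite ends in 5 of the 9 genes. BAD, BMF and BIK were highest in control replicate 2 and lowest in knockdown replicate 2, and BCL2L1 and BCL2L11 the reverse. Over all tested genes 25.9% had these 2 libraries at opposite ends. Knockdown replicate 3 was the highest library for MCL1 and BCL2L2 and the lowest for BAK1 and BID. Over all genes its deviations went with GC content (Spearman's rho -0.549 across 11768 genes, which are not independent replicates). Those of knockdown replicate 1 went the other way (0.605). The longest transcripts of MCL1, BCL2L2, BAK1 and BID have 45.1%, 52.3%, 58.8% and 49.7% GC. The part of GC content in the order of these genes was not tested. After the libraries were corrected for GC content and length, BCL2L11 was at 0.33 (limma adjusted p = 0.278) and BIK at -0.29 (limma adjusted p = 0.247).

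**Figure D3:**
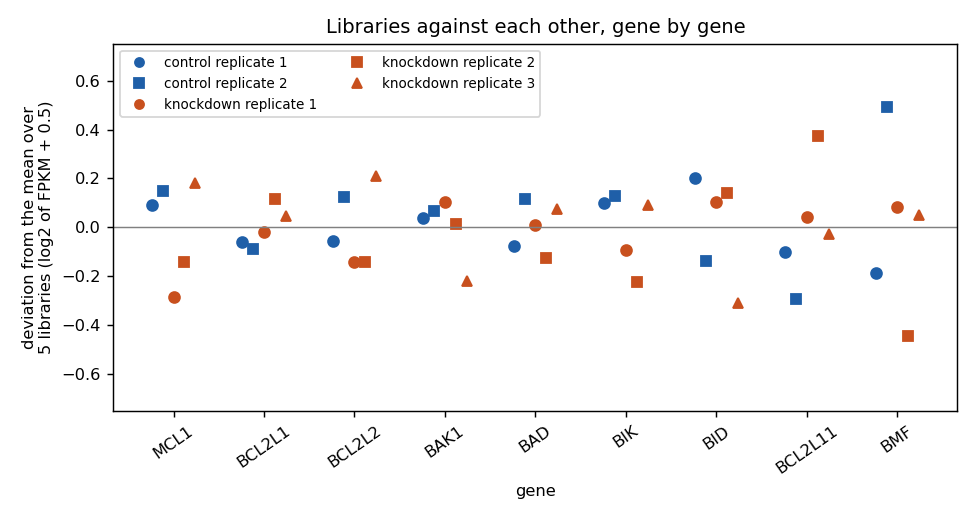
Deviation of each library from the gene's mean over the 5 libraries (log2 of FPKM + 0.5) for the 9 tested genes, controls in blue and knockdown in orange, with the symbol giving the replicate number. The squares, control replicate 2 and knockdown replicate 2, lie furthest apart for BMF (0.49 and -0.44) and for BCL2L11 (-0.29 and 0.38).

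Genes whose pattern over the 5 libraries was nearest to that of MCL1 and BAD, the members of highest mean level, were found by the root mean square difference of centred log2 values. For MCL1 these were IL17RB (0.01), RRM2B (0.03) and C21orf91 (0.03), against a median of 0.26 over all tested genes. For BAD they were MRPL53, UQCR11 and RHOC (0.01 to 0.02, median 0.20). With 5 libraries and 12196 genes such near matches describe these libraries only.

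Of 13 other genes of the BCL2 family, 9 were tested, 3 with a positive and 6 with a negative difference, and their median was -0.09. None passed over all genes in limma. At an unadjusted p under 0.05 there were 3, all lower in every knockdown library, where 5.48% of all tested genes were lower at this p and 15.8% were lower without overlap. BNIP3, a hypoxia-induced BH3-like protein of mitophagy, measured 30.7 and 24.8 FPKM in control cells against 18.7, 18.0 and 18.9 FPKM in knockdown cells, a log2 difference of -0.56 (limma adjusted p = 0.379). PMAIP1, which encodes NOXA, a BH3-only partner of MCL1, measured 30.1 and 32.0 FPKM in control cells against 22.9, 18.4 and 25.1 FPKM in knockdown cells, a log2 difference of -0.49 (limma adjusted p = 0.393). BOK, given above, was the remaining gene. The ratio of MCL1 to PMAIP1 was 3.90 and 3.81 in the controls and 3.95, 5.43 and 4.98 in knockdown, so that its groups did not overlap either. HRK, at 1.05 to 1.53 FPKM, had a log2 difference of 0.24 (limma adjusted p = 0.565). BCL2L14 and BCL2L15 were below a mean of 1 FPKM.

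The lists of family and apoptosis genes other than the 10 members held 71 tested genes, the 9 just described included. Of these, 41 had a positive and 30 a negative difference, the median was 0.05, 0 passed over all genes (limma), and 3 were higher and 5 lower at an unadjusted p under 0.05, a share near the 11.7% of all tested genes. Among 10 tested genes of MCL1 protein turnover, DESI1 (0.24), USP13 (-0.28) and BTRC (-0.26) had the smallest p, and 0 reached an unadjusted p under 0.05. Downstream of the mitochondria, APAF1, the core of the apoptosome, was at -0.24, DIABLO at 0.23 and CYCS, cytochrome c, at 0.46, the last resting on knockdown replicate 3 at 70.3 FPKM against 24.7 to 37.4 FPKM in the other libraries. Of the 9 tested caspase genes and substrates, 0 reached an unadjusted p under 0.05; CASP6 was at 0.36 (limma adjusted p = 0.471) and CASP10 at 0.27 (limma adjusted p = 0.509). Among caspase inhibitors BIRC5 (0.39), CFLAR (0.39) and XIAP (0.12) had the smallest p, and 0 of 6 reached an unadjusted p under 0.05.

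Genes of the death receptor arm, which feeds into the family through BID, differed in both directions, and none passed in limma over all genes. TNFSF10, the death ligand TRAIL, measured 56.6 and 70.3 FPKM in control cells against 80.9, 111.6 and 116.5 FPKM in knockdown cells, a log2 difference of 0.68 (limma adjusted p = 0.387), or 0.77 within set A and 0.66 within set B. Its receptor TNFRSF10B measured 23.8 and 23.5 FPKM in control cells against 16.8, 16.5 and 18.7 FPKM in knockdown cells, a log2 difference of -0.44 (limma adjusted p = 0.387). The ligand was higher and this receptor lower in every knockdown library than in both controls. TNFRSF25 had a log2 difference of -0.52 (limma adjusted p = 0.387). Of the 9 tested genes of this list, 1 was higher and 2 lower at an unadjusted p under 0.05, against 6.22% and 5.48% of all tested genes. This balance over all genes turned with the scaling: 759 were higher and 668 lower on the deposited values, and 512 higher and 820 lower after the libraries were set to equal FPKM sums. Among the 19 upstream regulators 14 had a positive difference, where 6256 of all 12196 tested genes did, and the list as a whole was not tested. The smallest p belonged to FOXO4 (0.43), a forkhead factor, DYNLL2 (0.30), the dynein light chain that tethers BMF, and DDIT3 (0.35), a factor of the unfolded protein response. Their adjusted p was 0.389 to 0.479 in limma.

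**Figure D4:**
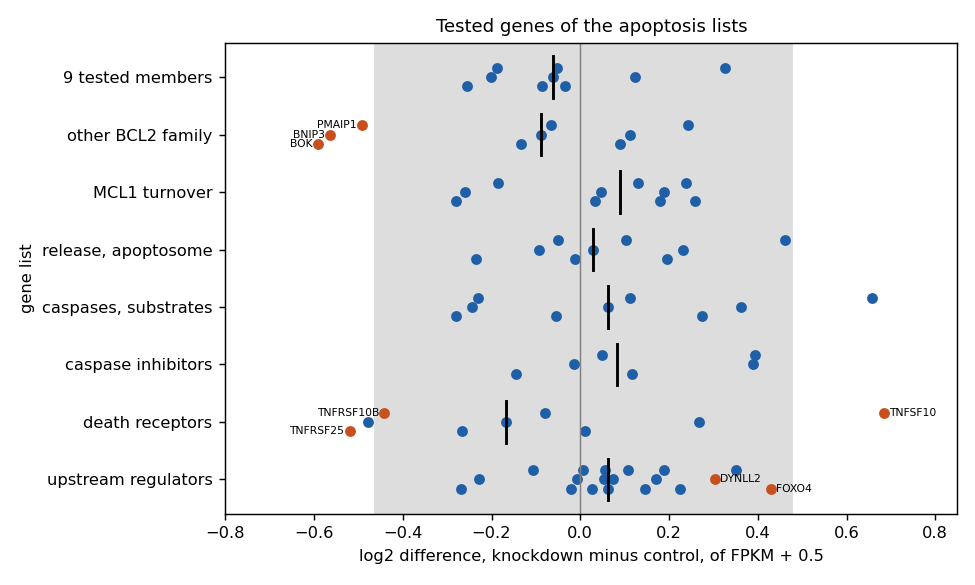
Log2 difference (knockdown minus control, FPKM + 0.5) of each tested gene, by list, with the list's median as a black bar and the 5th to 95th percentile of all tested genes (-0.46 to 0.48) as a grey band. Orange points, labelled with the symbol, have an unadjusted p under 0.05 in limma and blue points do not. The 9 tested members all lie inside the band, and the labelled genes belong to the other family, death receptor and upstream lists.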

How the data were processed

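The authors deposited 1 table of FPKM values, per the file headers with 1 row per symbol and 1 column per library. HISAT2 2.0.1, StringTie 2.0.6 and the builds GRCh38 and mm9 are named without a role per the submitters' processing notes. Annotation and strand setting: not given in the sources used here. FPKM carries no read totals, and absolute depth is unknown. Values entered limma 3.58.1 in R 4.3.3 (eBayes, intensity trend) as log2(FPKM + 0.5), a scale that understates changes of low genes. A mean of 1 FPKM or more was required, which left 12196 genes. Knockdown was compared with control, two-sided, with Benjamini-Hochberg adjustment over all of them and a threshold of 0.05. The fit was checked on simulated data with independent noise, without the sets or GC trends of these libraries. It called 1.4% of genes changed by 0.5 on the log2 scale and 47.8% of those changed by 1.

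Sets of libraries were found from the most frequent ratio of values under 0.3 FPKM, shared by 17.0% to 25.1% of low genes within sets and at most 3.96% between them. Positions, exon overlaps, lengths and GC content come from GENCODE release 29 (GRCh38), and promoters from RefSeq (GRCh38.p14).

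The members and lists were chosen with earlier results of these data known. Besides the members and AHNAK, the text names the 3 genes of smallest p of each other list and the 3 nearest in pattern to each of the 2 highest members. A gene that this rule names is not reported here; counts over the lists include it. Of 12 symbols listed for MCL1 turnover, 10 were in the table. Alternatives changed the pseudocount, low-value filter, scaling, variance model, library weights or threshold, added a replicate block, a set term or a loess correction (span 0.3) for GC content and length, or left out 1 library.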

Additional observations from a re-analysis of the deposited data

How the results depend on the processing

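BCL2L11 with array weights (0.51, adjusted p = 0.0480) was the only pass of a family member in the fits run. Over 180 alternative values of the 9 tested members, 14 had the other sign, and MCL1, BCL2L1, BCL2L11 and BIK kept their sign in all 20 of theirs. The cause of these changes was not tested. Set A gave the other sign for BCL2L2 (0.088), BAD (0.12) and BMF (0.25), and set B for BID (0.28). Set B moved BCL2L2 to -0.27, BAD to -0.24, BMF to -0.94 and BCL2L11 to 0.67, and set A moved BID to -0.31 and BCL2L11 to 0.11. AHNAK was at -1.19 (limma adjusted p = 0.372), with -0.83 for set A, -1.79 for set B and a pass with array weights (-1.55, adjusted p = 0.0340). BID was at 0.081 with array weights.

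The labels number libraries in both groups, and no label says that a number marks a shared culture or day. Deviations from the group mean were correlated between same-numbered libraries at -0.064 (replicates 1) and -0.578 (replicates 2) across genes. With 2 controls these deviations are mirror images, so each value only turns its sign for the other control. They cannot settle whether the numbers mark pairs. With the replicate block BAK1 was at 0.0059 and BID at 0.0897, and 0 members passed. With each library left out in turn, BCL2L2 ranged from -0.178 to 0.029, BAK1 from -0.156 to 0.0059, BID from -0.224 to 0.117, BAD from -0.129 to 0.061 and BMF from -0.597 to 0.084.

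Limma called 0 genes, and 1 with a pseudocount of 1, without a trend, with robust empirical Bayes or at an adjusted p under 0.1, and 1428 with array weights. Leaving out a library gave 0 to 10, the 10 without control replicate 1. An unadjusted p under 0.05 was reached by 1427 genes, 862 at a mean of at least 5 FPKM, 4285 under array weights, 828 under the set term, and 563 (without control replicate 2) to 2090 (without knockdown replicate 1) with a library left out. Members called numbered 1 with array weights. Of the 9 tested members, 3 reached an unadjusted p under 0.05 with array weights, as did 4285 of all 12196 genes. After the GC content and length correction 2 did (BCL2L11 and BIK), as did 2060 of 11768 genes. With a library left out 0 to 2 did, the 2 being MCL1 and BCL2L11 without knockdown replicate 3. In that fit 1767 of 12194 genes did.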
